A study of Mus musculus with 5 samples.

Results

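Ubiquitin-conjugating E2 enzyme genes were examined in mouse brain RNA that bound in vitro to the protein MA-Brent-1, an mRNA export factor of the REF/Aly family. The members were the probe sets whose annotation gave exactly 1 gene symbol beginning with Ube2. They were 81 probe sets of 33 genes, among 34945 probe sets of 18193 genes with 1 symbol. The rule used names only and no measured value, but it was set with earlier results of these data known. They are called E2 genes here, but whether each one encodes an E2 enzyme was not checked. RNA was eluted from deiminated protein on 2 arrays and from non-deiminated protein on 2 arrays, and 1 array held the starting brain RNA without any binding step, called input here. Deimination turns arginine residues of a protein into citrulline. The age, sex and strain of the mice, the source of the protein and the enzyme that deiminated it are not given in the sources used here. Only the title of non-deiminated replicate 2 calls its sample a biological repeat. Titles name the protein MA-Brent-1 for deiminated replicate 1 and non-deiminated replicate 2, and REFP2 for the other 2 bound arrays.

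Ubiquitin is attached to proteins by a cascade of enzymes. An E1 enzyme activates ubiquitin, an E2 carries it on a catalytic cysteine, and an E3 ligase brings the charged E2 to the substrate. The E2 largely sets what kind of chain is built, and so whether the substrate goes to the proteasome or takes part in signalling. In neurons this system is known for clearing misfolded proteins and for remodelling synapses. A few E2s carry related small proteins such as NEDD8 in place of ubiquitin.

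The arrays measured a signal intensity for each probe set in arbitrary units, and all 5 had been scaled to the same trimmed mean of 150. Over the whole table the median signal was 29.9 to 41.5 on the bound arrays and 102 on the input array. Hybridisation controls are bacterial and phage transcripts added at the hybridisation step. Their mean over 18 probe sets was 10.60 and 10.09 log2 on the first replicates of the deiminated and non-deiminated groups, 12.60 and 13.04 on the second ones, and 17.04 on the input array. Brain markers were present. The summed signal of 8 neuronal markers was 16904 to 18426 on the bound arrays and 4696 on the input array, that of 6 astrocyte markers 21442 to 28433 and 6766, and that of 5 oligodendrocyte markers 23221 to 68237 and 48663. Of those 5, Mag, Mobp and Mog were called higher in bound RNA by the test described below (4.29, 3.22 and 2.66 log2), and Mbp and Cnp, which carry most of the sum, were not called. Tested microglial markers (4) summed to 3389 to 4240 on the bound arrays and 1893 on the input array, and endothelial markers (3) to 708 to 948 and 811. Of the red blood cell markers, 2 summed to 91.2 to 155 on the bound arrays and 351 on the input array, and 2 liver markers, which brain should lack, to 48.8 to 102 and 616. Of the red blood cell pair, Alas2 was called higher (1.78) and Hba-a1 lower (-3.38). The ratio of 3′ to 5′ probe sets, a sign of RNA integrity and of how labelling ran, was 29.8 to 55.6 for actin on the bound arrays and 234 on the input array. For Gapdh it was 17.4 to 31.9 and 2.71. Over the 62 E2 probe sets that were tested, log2 signals correlated at 0.926 to 0.981 between bound arrays and at 0.375 to 0.536 between a bound array and input, and over all tested probe sets at 0.897 to 0.971 and 0.321 to 0.390. The part of these differences in the results for E2 genes was not tested.

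The test took in probe sets at or above the 40th percentile of mean log2 signal, which kept 62 of the 81 E2 probe sets and 28 of the 33 genes. That mean was taken over the 5 arrays, 4 of them bound, so a probe set bright on input alone could fall below that level. A probe set dim on input could likewise pass through its bound arrays alone. Ube2d1, Ube2q2 and Ube2g2, called higher below, had input signals of 5.23, 11.0 and 14.7, so their entry was not independent of their direction. The genes under that level included Ube2c, which works with the anaphase-promoting complex in mitosis, and Ube2l6, which carries the interferon-induced modifier ISG15. The others were the retrogene Ube2d2b, Ube2u and Ube2cbp, which counts as an E2 gene here by its symbol alone. Ube2c had signals of 1.81 to 7.21 on the bound arrays and 10.5 on the input array. Where a gene had several probe sets, the one with the highest mean signal stood for it. As 4 of the 5 arrays in that mean were bound, this choice can favour a probe set that reads higher in bound RNA. A difference is given on the log2 scale after adding a pseudocount of 4.18, with its standard error from limma. In what follows, pairs of signals are given for deiminated replicates 1 and 2 and then for non-deiminated replicates 1 and 2. A gene is called where the limma p, Benjamini-Hochberg adjusted over all 27022 kept probe sets, was under 0.05.

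**Figure D1:**
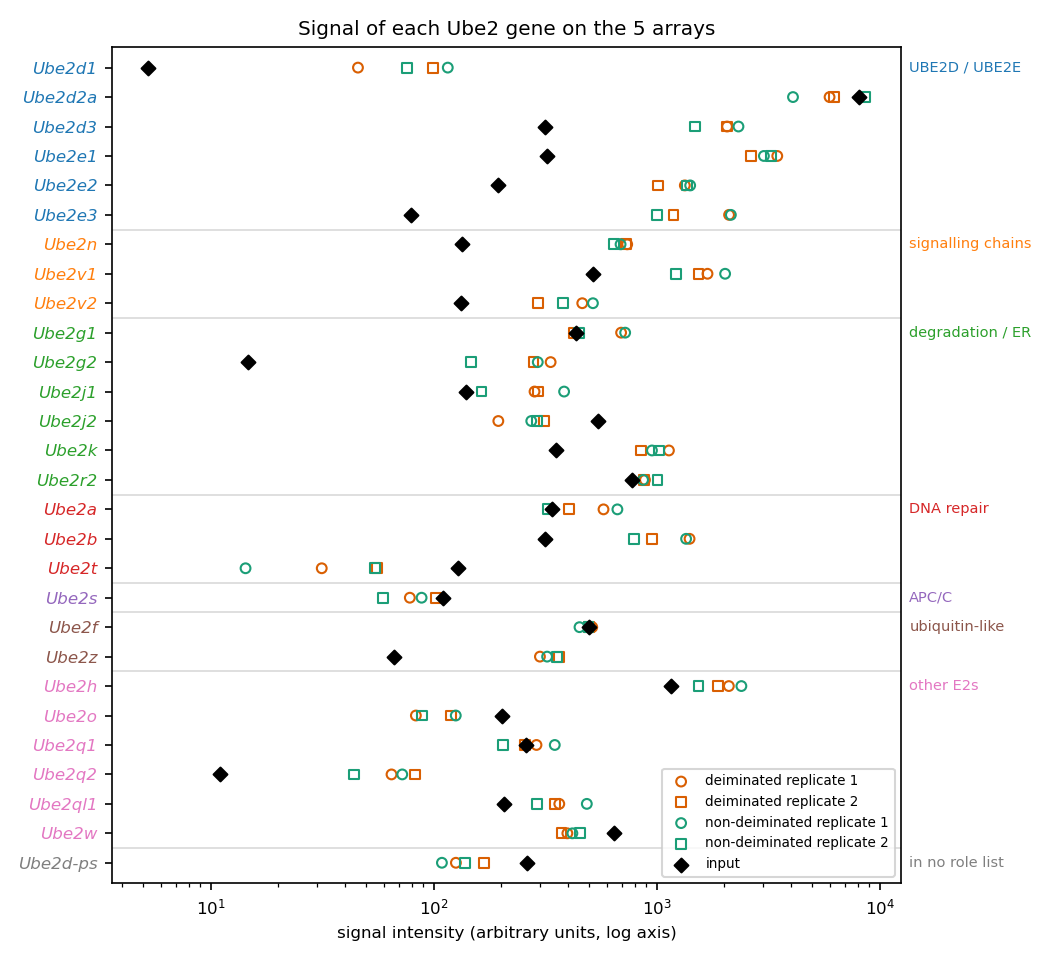
Signal intensity (log axis, arbitrary units) of the 28 tested E2 genes on each array, 1 probe set per gene, ordered by role. Open symbols are bound arrays and black diamonds the input array. Levels of different genes are not comparable, since each has its own probes. For 17 genes all 4 bound arrays lie above the input array, and for 6 all lie below it.

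The comparison of bound RNA with input asks which E2 transcripts read higher or lower in the eluted RNA than in the starting RNA. No array held RNA from a binding step without the protein, so retention by the protein itself was not tested. The comparison sets the mean of both bound groups against the 1 input array, whose spread was assumed to be that of the bound arrays. Of 28 E2 genes, 13 were called higher on the bound arrays and 1 lower, and 14 were not called. The input array also stood apart in its 3′ to 5′ ratios and marker levels, given above. Among all 13055 genes, 31.6% were called higher and 24.8% lower, against 46.4% and 3.57% of the E2 genes. The median difference was 0.87 over the E2 genes and 0.12 over all genes. Counted by probe set, 24 of 62 were called higher (38.7%) and 6 lower (9.68%), where all probe sets gave 26.8% and 29.8%. With a filter at the 60th percentile, 22 of the 55 E2 probe sets left were called higher (40%) against 36% of all, and 5 were called lower (9.09%) against 21% of all. With no filter, 24 of 81 were called higher (29.6%) against 15.6% of all, and 12 were called lower. Of the E2 calls 66.7% were then higher, against 30.2% of the calls among all probe sets. All 4 bound arrays lay above input for 17 E2 genes and below it for 6, where the shares of all genes were 44.2% and 40%. The genes were not tested as a set.

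These counts depend on how arrays are scaled to each other. After median centring, 43 E2 probe sets were called higher and 1 lower, and after scaling to the hybridisation controls 30 and 0. The share of E2 probe sets called higher was then 69.4% and 48.4%, where all probe sets gave 46.9% and 36.9%, and under control scaling 100% of all calls were in that direction. Without non-deiminated replicate 2, 29 were called higher (46.8%, against 29.5% of all) and 11 lower. Centring took the median of all genes from 0.12 to 1.58 and control scaling took it to 5.58. The E2 median lay 0.75 above that of all genes before and after both scalings. Each shifts all log2 signals of an array by the same amount, so neither can test this gap. Under settings that can move it, the gap was 0.39 after quantile normalisation and 0.38 with the stricter filter given above. It was 0.51 without non-deiminated replicate 1, 0.99 without non-deiminated replicate 2 and 0.98 with no filter. Directions below therefore hold for the scaling the authors used.

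**Figure D2:**
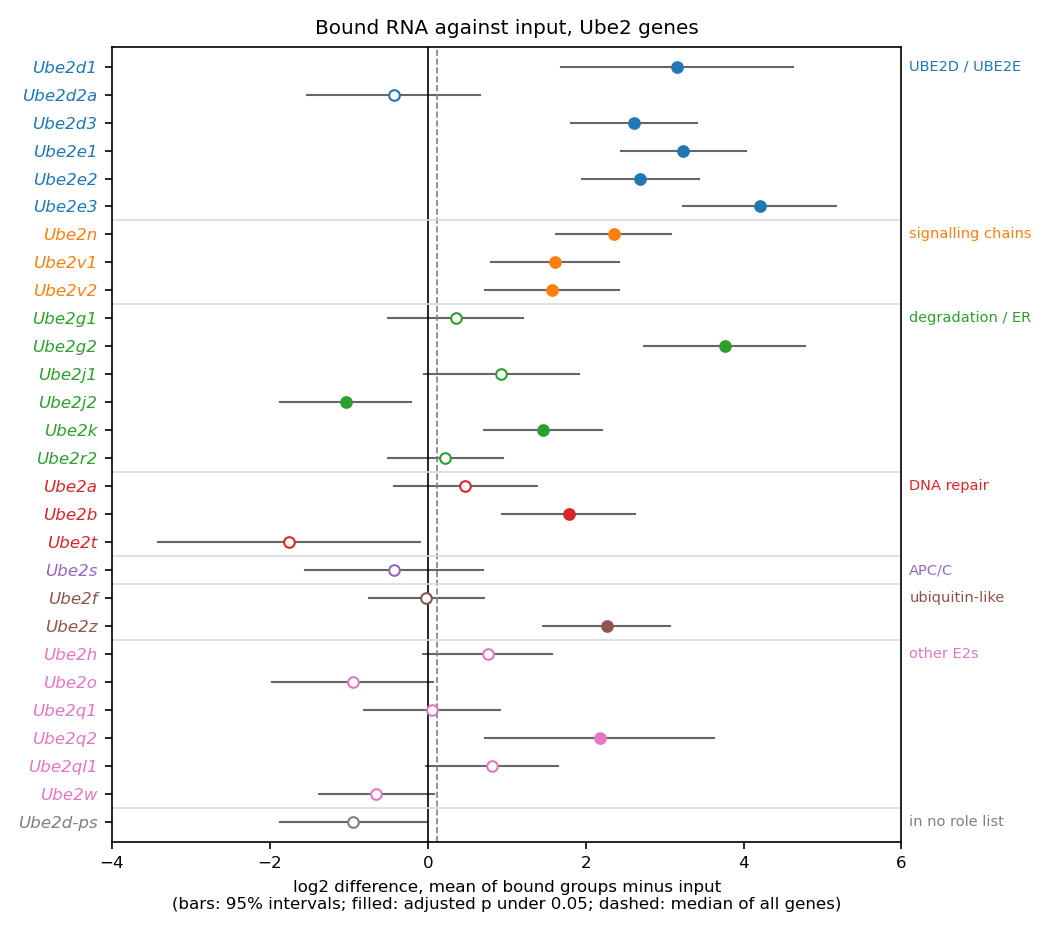
Log2 difference between the mean of the bound groups and the input array for each tested E2 gene, with 95% intervals, ordered by role. Filled points passed the test (13 higher, 1 lower), and the dashed line is the median of all genes, 0.12. The UBE2D and UBE2E genes lie to the right except Ube2d2a.

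E2s of the UBE2D and UBE2E families start chains with a wide range of ligases. Of their 6 tested genes 5 were called higher and 0 lower, with a median of 2.92. Ube2e3 had signals of 2113 and 1190 with deiminated protein, 2153 and 1004 with non-deiminated protein and 78.9 on the input array. Every bound array lay far above input, and both first replicates lay above both second ones. The difference was 4.20 ± 0.45 (limma adjusted p = 1.33e-05), an 18.4-fold change and the largest of the 28. A dimmer probe set of Ube2e3 had 1.22 ± 0.74 and was not called (limma adjusted p = 0.174). On that probe set deiminated replicate 2, at 19.9, lay below input, at 22.4. Ube2e1 had 3476 and 2651, 3028 and 3262, and 323 on input, a difference of 3.24 ± 0.37 (limma adjusted p = 2.12e-05). Its 4 bound arrays lay within 1.31-fold of each other. A dimmer probe set of Ube2e1 had 1.28 ± 0.76 and was not called (limma adjusted p = 0.165). Ube2e2 had 1338 and 1014 with deiminated protein, 1414 and 1366 with non-deiminated protein and 193 on input, a difference of 2.69 ± 0.34.

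In the UBE2D family, Ube2d3 had 2070 and 2075 with deiminated protein, 2328 and 1484 with non-deiminated protein and 317 on input (2.61 ± 0.37, limma adjusted p = 0.000122). Ube2d1 had 45.8 and 99.2, 115.8 and 76.0, and 5.23 on input. Its difference of 3.16 ± 0.68 was called, but the input signal lay near the pseudocount, and the value was 3.68 with the smaller and 2.15 with the larger pseudocount. Ube2d2a behaved otherwise. Its brightest probe set had 5964 and 6222, 4088 and 8647, and 8109 on the input array, which lay inside the range of the bound arrays (-0.43 ± 0.51, limma adjusted p = 0.483).

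Chains that signal without sending a protein to the proteasome are built by UBE2N together with UBE2V1 or UBE2V2, partners that lack the catalytic cysteine. All 3 genes were called higher, with a median of 1.61. Ube2n had 738 and 731 with deiminated protein, 689 and 643 with non-deiminated protein and 133 on input, a difference of 2.35 ± 0.33 (limma adjusted p = 0.000129). The 4 bound arrays lay within 1.15-fold of each other, 5.11-fold above input by the fitted difference. Ube2v1 had 1691 and 1542, 2029 and 1219, and 518 on input (1.61 ± 0.38). After quantile normalisation Ube2v1 fell to 0.71 and was no longer called (limma adjusted p = 0.0796; over all alternatives 4.04e-05 to 0.0796). Ube2v2 had 464 and 293, 518 and 380, and 133 on input (1.57 ± 0.39), so that all bound arrays were again the higher ones.

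E2s of degradative chains and of quality control at the endoplasmic reticulum gave both directions. Of 6 genes 2 were called higher and 1 lower, with a median of 0.64. Ube2g2, which serves ligases that clear misfolded proteins of the endoplasmic reticulum, had 335 and 280 with deiminated protein, 293 and 147 with non-deiminated protein and 14.7 on input (3.76 ± 0.47, limma adjusted p = 4.84e-05). The low input signal makes the size depend on the pseudocount, from 3.10 to 4.01 over the larger and the smaller one. Ube2k, which builds degradative chains and binds huntingtin, had 1136 and 852, 953 and 1025, and 355 on input (1.46 ± 0.34). The membrane-anchored Ube2j2 was the only E2 gene called lower, with 195 and 314, 274 and 291, and 547 on input (-1.04 ± 0.38, limma adjusted p = 0.0345; 0.00159 to 0.47 over the alternatives). All bound arrays lay below input under the authors' scaling. The sign turned to 0.42 after median centring and to 4.42 after control scaling, and the call was lost without deiminated replicate 1 (-0.87). Its relative Ube2j1 had 284 and 293, 385 and 164, and 139 on input (0.93 ± 0.46), Ube2g1 0.36 ± 0.40 and Ube2r2, a relative of Cdc34, 0.23 ± 0.33, and none of these was called.

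Among E2s of DNA repair, 1 of 3 was called. Ube2b, a RAD6 homologue that modifies histones and the replication clamp, had 1405 and 955 with deiminated protein, 1356 and 792 with non-deiminated protein and 315 on input (1.78 ± 0.39, limma adjusted p = 0.00259). Its paralogue Ube2a had 578 and 406, 667 and 327, and 340 on input, where input lay within the bound range (0.48 ± 0.42). Ube2t, the E2 of the Fanconi anaemia pathway, had 31.5 and 55.8, 14.4 and 54.8, and 128 on input (-1.76 ± 0.77, not called). Ube2s, which extends chains on the anaphase-promoting complex, had 78.3 and 103, 88.4 and 59.3, and 110 on input (-0.43 ± 0.52). Both of these dim genes, linked to dividing cells, read lower on all bound arrays than on input without passing the test by the probe set that stood for them. A dimmer probe set of Ube2s was called lower, with 10.5 and 13.4, 8.19 and 29.2, and 241 on input (-3.76 ± 0.89, limma adjusted p = 0.00397).

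For modifiers other than ubiquitin, Ube2z, which receives ubiquitin and FAT10 from UBA6, had 300 and 364 with deiminated protein, 323 and 357 with non-deiminated protein and 66.3 on input (2.27 ± 0.37, limma adjusted p = 0.0004). Ube2f, an E2 of NEDD8, had 515 and 500, 451 and 495, and 496 on input, a difference of -0.02 ± 0.34 with a 95% interval from -0.74 to 0.71. Ube2m and Ube2l3, which carry NEDD8 and ubiquitin, were not analysed here. Of the 6 other tested E2s, 1 was called. Ube2q2 had 64.8 and 82.5, 72.4 and 44.1, and 11.0 on input (2.18 ± 0.67, limma adjusted p = 0.0151), and without deiminated replicate 2 it had 2.09 and was not called (limma adjusted p = 0.0533; 0.00071 to 0.0533 over the alternatives). Ube2h had 0.76 ± 0.38, Ube2ql1 0.81 ± 0.39 and Ube2q1 0.05 ± 0.40, and none of these was called. Another probe set was called higher for Ube2h (4.23 ± 0.58, with an input signal of 5.84) and for Ube2q1 (2.22 ± 0.43). The E2 and E3 hybrid Ube2o had -0.95 ± 0.47 and Ube2w, which modifies protein N termini, had -0.65 ± 0.34. Ube2d-ps, a pseudogene by its symbol, had 126 and 169, 109 and 138, and 263 on input (-0.95 ± 0.43, not called). Its other probe set was called lower (-2.66 ± 0.59, limma adjusted p = 0.00265).

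The comparisons of each bound group with input share that 1 array and so are not independent. In deiminated against input 13 E2 genes were called higher and 1 lower, with a median of 0.91, where 29.5% and 22.4% of all genes were called. In non-deiminated against input the counts were 13 and 0 and the median 0.84, where 29.2% and 21.3% of all genes were called. By probe set, 23 E2 probe sets were called higher and 6 lower in the first of these, against 24.9% and 26.6% of all. In the second, 22 were called higher and 5 lower, against 24.7% and 25.7% of all. Ube2e3 had 4.26 with deiminated and 4.15 with non-deiminated protein, Ube2g2 4.04 and 3.49, and Ube2n 2.42 and 2.28. For Ube2j2 the values were -1.13 and -0.94, the first called and the second not. The difference between the bound groups was tested directly, as given below.

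Probe sets of the same gene often disagreed about the difference from input. Of 20 E2 genes with several kept probe sets, 10 had all of them in 1 direction (50%), against 40.7% of 5643 such genes in the whole table. Agreement was seen for Ube2b, where 3 probe sets had 0.91 to 1.78, for Ube2v1 with 1.61 and 4.31, and for Ube2j2 with -1.04 and -0.90. In 2 genes, Ube2d2a and Ube2f, probe sets were called in opposite directions. For Ube2d2a, 2 probe sets were called higher, at 0.99 and 1.67, and 1 lower, at -2.46. Ube2f ranged from -1.85 to 0.93 over 6 probe sets. Ube2d3 had the widest range, from -0.23 to 6.13, also over 6. The value of 6.13 came from a probe set with 827 and 767, 996 and 554 on the bound arrays and 6.87 on input. It carries the suffix that Affymetrix gives to probes shared between transcripts, and UBE2D genes are close in sequence, so its signal cannot be ascribed to Ube2d3 alone. The probe sets that stood for Ube2v1 and Ube2s carry the same suffix, so their values may not be specific to those genes. Ube2a had 0.48 by the probe set that stood for it and 4.32 by another with an input signal of 4.21. Ube2n, Ube2z, Ube2k and Ube2v2, all called higher, each had a probe set on the other side of 0, at -0.61, -1.25, -1.18 and -0.33, and none of these was called. For Ube2n and Ube2z that probe set was brighter on input than the one that stood for the gene (250 against 133 and 162 against 66.3). For Ube2k and Ube2v2 it was dimmer on input. Ube2r2, not called by the probe set that stood for it, had another called lower, at -1.98. Averaging all kept probe sets of a gene left the E2 median at 0.90. The median of all genes was not computed that way, so the gap between them under averaging was not tested.

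**Figure D3:**
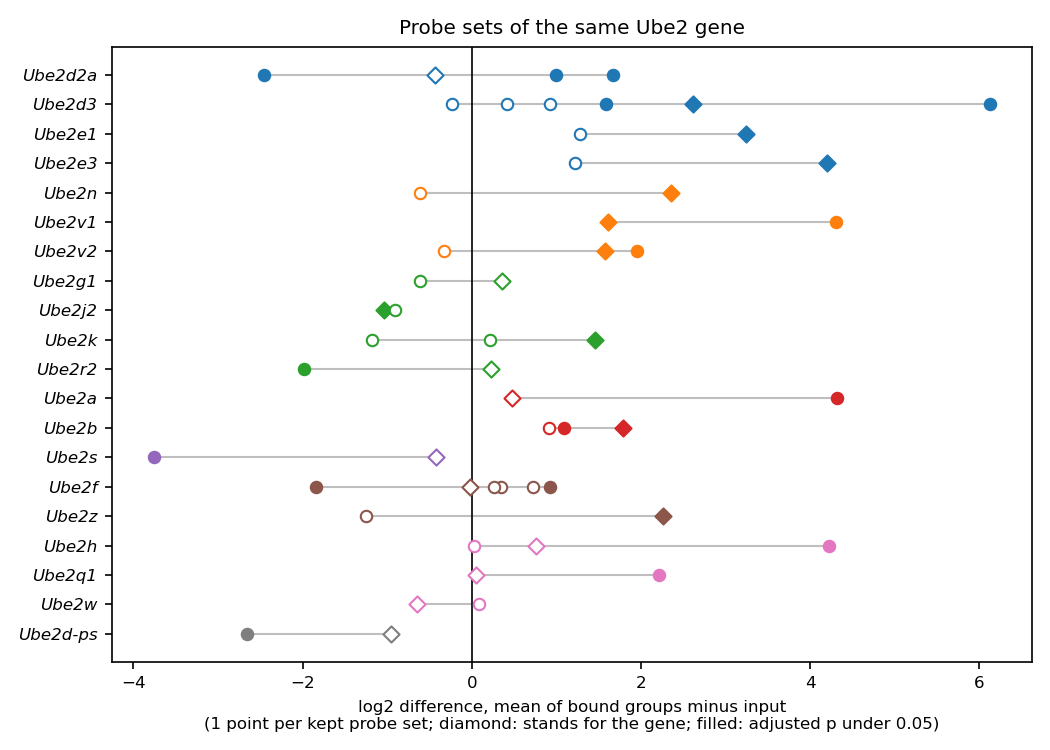
Log2 difference between the mean of the bound groups and the input array for every kept probe set of the 20 E2 genes that had several, 1 row per gene. Diamonds stand for the gene elsewhere in the text and filled points passed the test. Ube2d3 spans -0.23 to 6.13, and Ube2d2a and Ube2f have called probe sets on both sides of 0.

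Whether RNA eluted from deiminated and from non-deiminated protein differed was addressed by setting both bound groups against each other. As all arrays were scaled to the same trimmed mean, a change in the total amount of eluted RNA could not be seen. Limma called 0 of 62 E2 probe sets and 0 of all 27022 (0% called), and 0 of the E2 probe sets and 356 of all had an unadjusted p under 0.05. The E2 median was 0.04 with 16 genes positive and 12 negative, and the median of all genes was -0.003. By the probe set that stood for each, differences of the 28 genes ran from -0.45 for Ube2d1 to 0.55 for Ube2g2. Over all 62 E2 probe sets they ran from -1.10 for a probe set of Ube2e3 (interval -2.53 to 0.33) to 0.66 for one of Ube2a. Of 20 E2 genes with several kept probe sets, 9 had all of them in 1 direction (45%), against 39.7% of such genes in the whole table. The 95% interval lay within 2-fold either way for 19 of the 28 genes and within 4-fold for 28, where the shares of all genes were 32.9% and 89.1%. With 2 arrays a group, smaller changes could not be resolved. Leaving out each bound array in turn moved the E2 median between -0.16 and 0.18, the first without non-deiminated replicate 2.

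For Ube2g2 the signals of 335 and 280 against 293 and 147 overlapped, and the interval was -0.36 to 1.46. Ube2t had 31.5 and 55.8 against 14.4 and 54.8 (0.49, with an upper 95% bound of 1.97), and Ube2q2 had 0.35 (-0.95 to 1.64). At the other end, Ube2d1 had 45.8 and 99.2 against 115.8 and 76.0 (-0.45, interval -1.77 to 0.87). Groups did not overlap for 4 E2 genes, 14.3% of them against 23.7% of all genes. These were Ube2n and Ube2f with deiminated higher, at 0.14 and 0.10, and Ube2e2 and Ube2w with non-deiminated higher, at -0.25 and -0.17. The 95% interval ran from -0.51 to 0.79 for Ube2n and from -0.67 to 0.66 for Ube2k, 2 of the genes called higher than input. By role the medians were -0.01 for the UBE2D and UBE2E genes, 0.04 for the signalling chain genes, -0.04 for the degradation and quality control genes and 0.16 for the DNA repair genes.

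**Figure D4:**
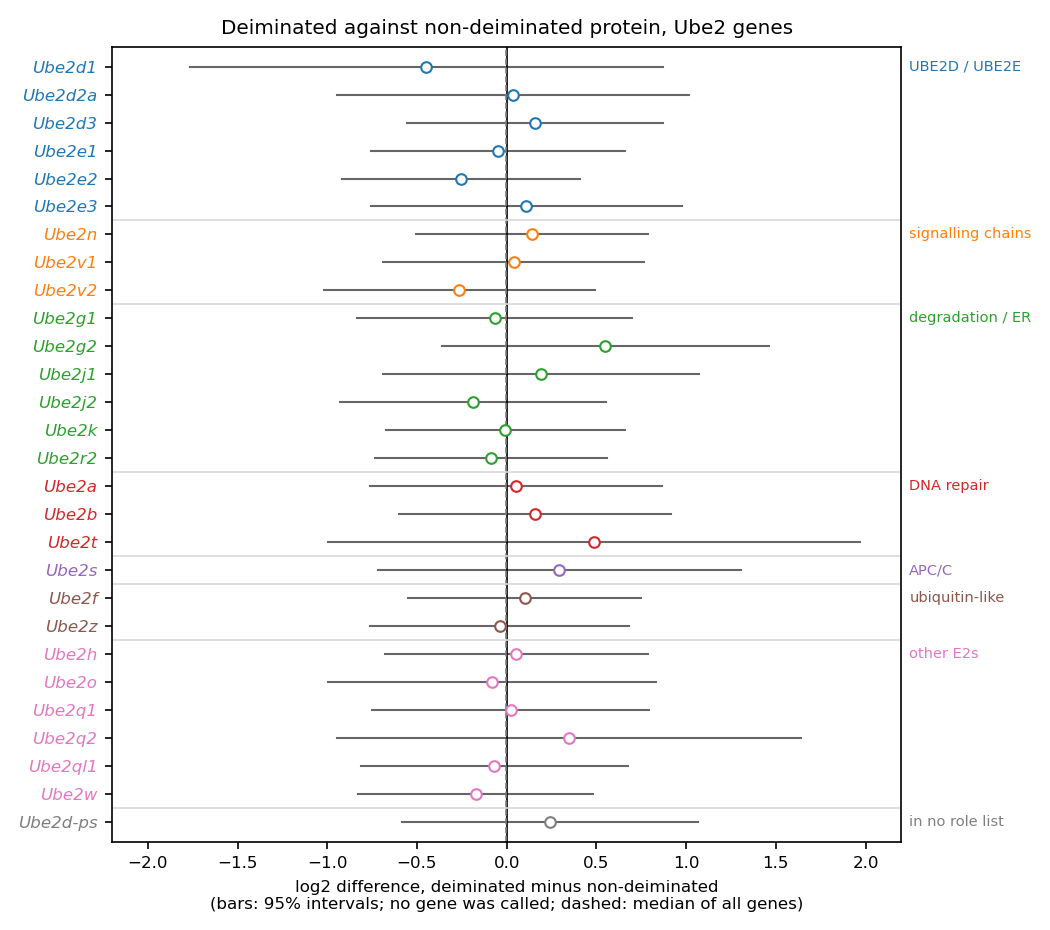
Log2 difference between deiminated and non-deiminated arrays for each tested E2 gene, with 95% intervals, ordered by role. No gene passed the test, every interval spans 0, and point values run from -0.45 for Ube2d1 to 0.55 for Ube2g2.

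The arrays differed within a group along the level of the hybridisation controls. For 10 of 28 E2 genes (35.7%) both arrays of lower control signal, the first replicates, lay above both arrays of higher control signal, against 22.1% of all genes, and for 5 they lay below, against 27.1% of all genes. Ube2b, Ube2e3 and Ube2a were among the 10. Within the arrays of lower control signal, the median difference of the E2 genes between deiminated and non-deiminated was -0.09, and within those of higher control signal it was 0.26, where all genes had -0.002 and -0.03. The sign was the same in both pairs of arrays for 10 of 28 genes. By probe set it was the same for 26 of 62, where the share of all probe sets was 47.4%. Ube2d1 had -1.26 and 0.37, Ube2j1 -0.43 and 0.82, and Ube2g2 0.19 and 0.91. With the control level as a block, an alternative chosen after seeing the data, limma still called 0 E2 probe sets between the bound groups. How the control level bears on these values was not tested further.

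**Figure D5:**
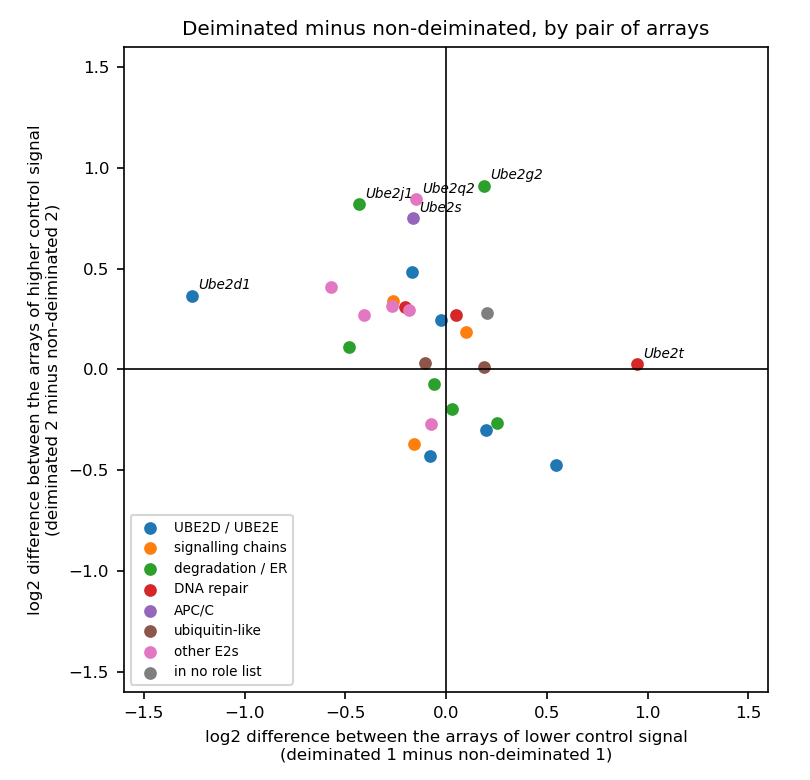
Log2 difference between deiminated and non-deiminated protein for the 28 E2 genes, within the arrays of lower hybridisation control signal (horizontal) and within those of higher control signal (vertical). Points in the upper right and lower left have the same sign in both pairs, which held for 10 genes, and the genes farthest from 0 on either axis are named.

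Other genes of the ubiquitin system were grouped by the step at which they act. In bound against input, E2 enzymes with other symbols had 3 of 8 genes called higher and 1 lower, with a median of 0.88. The E2-like gene Aktip had 3.07 and Ufc1, the E2 of the modifier UFM1, 1.64. Among E1 enzymes 3 of 8 were called higher and 3 lower (median 0.61), and the NEDD8 E1 subunits Nae1 and Uba3 had 2.41 and 2.03. Of the ubiquitin-like proteins tested, 3 of 5 were called higher and 1 lower (median 2.72), with Sumo3 at 4.32 and Nedd8 at 3.22. Genes that encode ubiquitin itself were not analysed here.

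HECT ligases take ubiquitin from the E2 onto their own cysteine, and 9 of 24 were called higher and 4 lower, with a median of 0.60. Huwe1 had 5.44 and Hectd4 5.30, with input signals of 8.75 and 9.31. RBR ligases had 6 of 11 higher and 1 lower (median 1.33), and Rnf144b had 4.52 and Rbck1 3.12. Of the cullin and RING core 5 of 13 were called higher and 0 lower (median 0.59), with Cul4b at 3.39 and Cul5 at 2.75. Anaphase-promoting complex genes had 10 of 16 higher and 1 lower (median 1.89), with Anapc4 at 5.15 and Cdc27 at 3.55, on input signals of 14.8 and 19.4. The probe sets of Anapc4, Aktip and Uba3 carry the suffix of shared probes, so their values may not be specific to those genes. Deubiquitinases, which remove ubiquitin, had 14 of 32 higher and 5 lower (median 0.59), with Usp30 at 4.52 and Usp9x at 4.48. Beside these stand the 31.6% and 24.8% of all genes given above, and no list was tested as a set. Each listed gene stands by 1 probe set, and its other probe sets were not compared. Between deiminated and non-deiminated protein 0 genes of these lists were called, with medians from -0.09 for the E1 enzymes to 0.09 for the deubiquitinases.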

How the data were processed

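The deposited table holds MAS5 signal intensity per probe set on a linear scale, per the submitters' processing notes, which give no MAS5 version. The trimmed mean, leaving out the outermost probe sets, was 150 on every array, so the authors had scaled them to a common level. Replicate numbers follow sample order and pair no arrays. Nothing says the repeats came from separate animals or protein preparations, so the p-values reflect only how these arrays vary, which may be technical, and 5 arrays limit the precision.

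From the table, log2(signal + 4.18) was computed, the pseudocount being the median of all values (41.8) divided by 10. The 64 control probe sets were left out. Probe sets at or above the 40th percentile of mean log2 signal were fitted with limma 3.58.1 in R 4.3.3 (lmFit, eBayes with a trend) with 3 group means, 2 residual and 10.9 prior degrees of freedom. The model was tested on simulated data in which the input array varied like the bound ones, so that assumption itself was not tested. Gene symbols came from the platform annotation. All 33 E2 genes matched RefSeq's GRCm38.p6 gene table, and 0 symbols changed. All E2 genes could be named, ordered by role, and in each other list at most the 2 genes of largest moderated t. Members, lists and tests were chosen with earlier results of these data known. Alternatives covered the pseudocount (1.05 and 16.7), the filter, the scaling, the variance model, blocks and leaving out each bound array.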

Additional observations from a re-analysis of the deposited data

How the results depend on the processing

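Between deiminated and non-deiminated protein, 0 E2 probe sets were called under each of 15 alternatives, and 39 of 417 gene values changed sign. In bound against input, 11 of the 14 called E2 genes were called the same way under every alternative in which they were tested. The exceptions were Ube2v1, Ube2q2 and Ube2j2. Ube2j2 turned to 0.42 (median centring) and 4.42 (control scaling), and in deiminated against input to 0.37 and 4.31. Its call was also lost with no variance trend (limma adjusted p = 0.105) and with the protein name as a block (0.0561).

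Counts and medians are given for bound, deiminated and non-deiminated against input in turn. Values over all genes or all probe sets are given for bound against input only, so the other counts are not results about E2 genes in particular. Median centring gave 43, 40 and 38 E2 probe sets called higher, 1, 1 and 0 lower and medians of 2.33, 2.40 and 2.26. Control scaling gave 15 higher for deiminated against input, 0, 0 and 0 lower and medians of 6.33, 6.35 and 6.31, with a median standard error of 2.70. In bound against input the median of all genes was 1.58 after centring and 5.58 after control scaling. With no filter 12, 12 and 10 were lower and the medians were 0.48, 0.50 and 0.45. The median of all genes in bound against input was then -0.50, against 0.12 with the filter. The probe sets that entered had a low mean signal over the arrays, but some were bright on input. A probe set of Ube2ql1 had 494 on input and 2.51 to 25.2 on the bound arrays. Others went the other way, and a probe set of Ube2d2a had 4.62 on input and 14.2 to 46.6 on the bound arrays. Quantile normalisation gave 8 lower for non-deiminated against input. A block for the control level, added after the data were seen, gave 10 lower for bound and 8 for non-deiminated. With it, 73.7% of the E2 calls and 46.1% of all calls in bound against input were higher. When each bound array was left out, bound against input had 5 to 11 lower and medians of 0.63 to 1.12, and non-deiminated against input had 5 to 8 lower and medians of 0.45 to 1.32. The highest of these came without non-deiminated replicate 2, and the lowest medians without non-deiminated replicate 1. With each bound array left out, the median of all genes in bound against input was 0.12. Of all calls 45.9% to 47.9% were then higher, against 72.5% to 80.8% of the E2 calls. No paired analysis was possible because the replicate numbers follow sample order and no label gives a shared source. The blocks for protein name and control level group arrays by title or by measured control signal. Each comparison with input rests on 1 input array.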
